A study of Caenorhabditis nigoni and Caenorhabditis briggsae with 14 samples.

Results

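Sterile males of the introgression strain ZZY10330 were set against sterile males of the introgression strain ZZY10307, over every gene and every repeat family counted. The comparison takes all libraries of these strains, 3 of ZZY10330 and 3 of ZZY10307, which are 6 of the 14 libraries of the series. ZZY10330 males carry the Caenorhabditis briggsae X chromosome from 16.4 Mb to its end in a genome that is otherwise mostly C. nigoni. ZZY10307 males carry the C. briggsae X chromosome from 4.5 to 12.2 Mb in the same kind of genome. The segments do not overlap, and the labels give males of both strains as sterile. The remaining male libraries, used here as points of reference, are 3 of AF16, a wild-type C. briggsae strain, and 3 of JU1421, a wild-type C. nigoni strain, both fertile. A single library each of AF16 and JU1421 females served only to define sex-biased genes, and C. briggsae animals of that sex are normally hermaphrodites that also make sperm. Each library pooled 300 young adult animals. The introgression males were offspring of fertile introgression females crossed to JU1421, and were recognised by green fluorescence from a pharyngeal myosin promoter (cbr-myo-2::GFP), so the marker shows carriers but not the length of their segment. Nothing in the labels ties replicates to separate cultures, and p-values may therefore rest on technical spread between libraries alone. Of 23439 listed genes 13289 were tested, and of 920 listed repeat families 696 were tested.

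In nematodes the adult male body is rich in RNA of the male germ line, where sperm are made, and of the male tail, gonad and nervous system. A large part of male-biased expression in whole worms comes from sperm production. Males have a single X chromosome, so a foreign X segment has no second copy beside it. Hybrids of C. briggsae and C. nigoni often have sterile or inviable males, and strains with single foreign segments are used to map the regions responsible. The question this comparison addresses is how the transcriptomes of sterile males differ when different X segments are present.

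The libraries of ZZY10330 varied more among themselves than those of ZZY10307. Gene counts ran from 2372653 to 3785106 in ZZY10330 and from 2390308 to 3260449 in ZZY10307. Pairwise correlations of log2 expression over genes lay between 0.824 and 0.885 within ZZY10330, between 0.919 and 0.936 within ZZY10307, and between 0.801 and 0.883 across the strains. The common biological coefficient of variation, the relative spread between replicates, was 0.639 in ZZY10330 and 0.332 in ZZY10307, with 0.389 in AF16 and 0.376 in JU1421. ZZY10330 replicate 2 stood apart: without it the value for ZZY10330 was 0.493, and 689 genes in it lay 4-fold or more below both other ZZY10330 libraries. ZZY10330 libraries had counts in 14531, 12516 and 12854 genes, against 15081, 14580 and 14518 in ZZY10307 libraries. Thinned to the smallest gene total in a single random draw, these were 14288, 12389 and 12770 in ZZY10330, against 14759, 14340 and 14318 in ZZY10307. Every ZZY10330 library then lay below every ZZY10307 library, narrowly so for ZZY10330 replicate 1 (14288 against 14318). Before thinning ZZY10330 replicate 1 lay just above the lowest ZZY10307 library (exact two-sided permutation p = 0.2).

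Male-biased genes were taken as those at least 4-fold higher in males than in females of the same parental strain, with at least 5 CPM (gene counts scaled to a common library total, with TMM factors for single genes and families) in the higher sex. Male bias in both parents held for 1361 genes. These genes made up 18.2%, 14.2% and 18.4% of gene counts in the ZZY10330 libraries, against 11.3%, 9.92% and 10.6% in the ZZY10307 libraries. Every ZZY10330 library lay above every ZZY10307 library, and both strains lay below all libraries of AF16 and JU1421, which held 28.5% to 32.8%. The class was chosen for high levels in these AF16 and JU1421 males, which by itself tends to place other strains below them. The means were 16.9 ± 2.37% in ZZY10330 and 10.6 ± 0.669% in ZZY10307 (SD, n = 3 each). The exact two-sided permutation test gave p = 0.1, the smallest that 3 against 3 libraries allow, or 0.15 adjusted over the 12 library measures compared. In the parental female libraries the same genes held 1.99% in AF16 and 0.285% in JU1421, values that are low by the definition of the class. The libraries of both sterile strains lay between these values and those of the parental males. In whole worms, fewer cells of a type and less RNA per cell cannot be told apart.

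Female-biased genes, defined in the same way, held a small part of the counts. The 557 genes female-biased in both parents made up 0.876%, 0.889% and 1.34% of gene counts in ZZY10330, against 1.69%, 1.28% and 1.51% in ZZY10307. ZZY10330 replicate 3 lay above ZZY10307 replicate 2, so the strains overlapped (exact two-sided permutation p = 0.2). With the larger set of genes female-biased in AF16, the shares were 2.22 ± 0.385% in ZZY10330 and 3.11 ± 0.299% in ZZY10307 (SD, n = 3 each), without overlap (exact two-sided permutation p = 0.1). Shares of counts are not independent of each other, since a larger male-biased share lowers the rest.

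**Figure D1:**
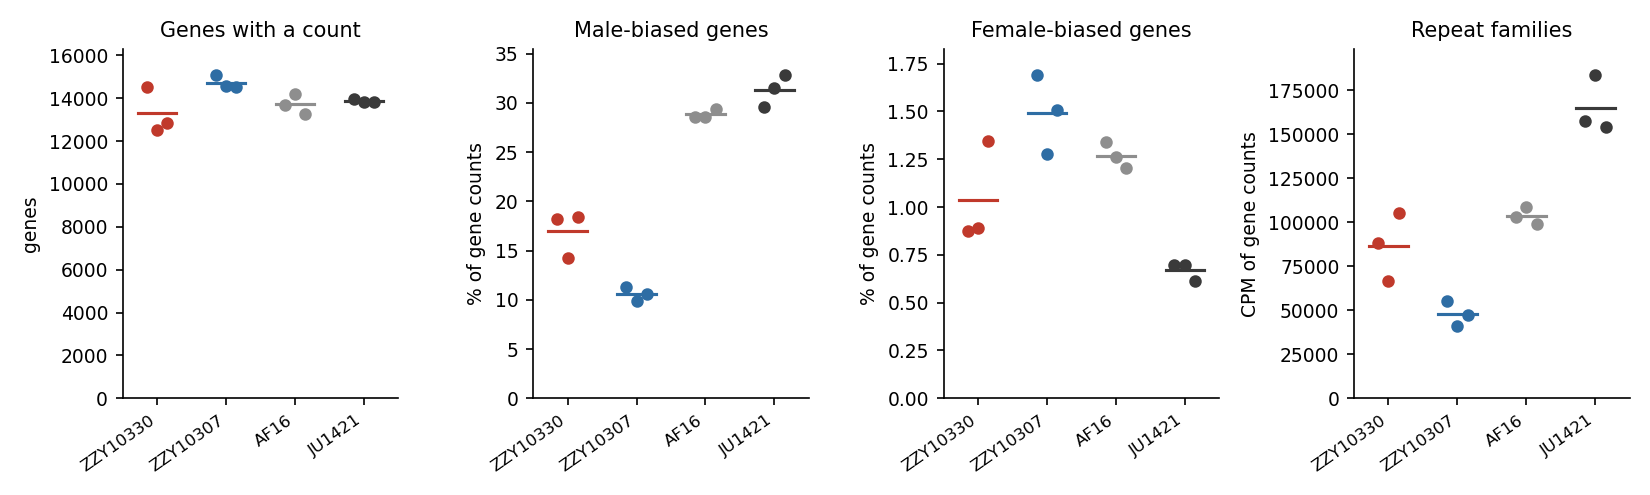
Values of each male library by strain, with a line at the strain mean: genes with a count, percent of gene counts in genes male-biased in both parents, percent in genes female-biased in both parents, and summed repeat counts in CPM of gene counts. In the male-biased and repeat panels all ZZY10330 libraries lie above all ZZY10307 libraries and the parental strains lie higher on average.

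Across all genes, 1131 differed between ZZY10330 and ZZY10307, which is 8.51% of the genes tested (edgeR quasi-likelihood test, Benjamini-Hochberg adjusted p below 0.05). In ZZY10330 674 genes were higher, 5.07% of those tested, and 457 were lower, 3.44%. The median size of the difference was 1.34 on the log2 scale among the higher genes and 1.36 among the lower. Among the higher genes 202 differed by less than 2-fold and 33 by more than 16-fold, and among the lower genes 103 and 41. The libraries of the strains did not overlap in 641 of the higher and 450 of the lower genes, against 3777 or 28.4% of all genes tested. A call was more frequent among genes with many counts: of 323 genes with a mean over 500 CPM in the 12 male libraries 31.6% were higher and 8.05% lower, and of 2155 genes under 5 CPM 0.186% and 0.696%. Counts in one direction depended on the scaling. With libraries scaled by total counts alone, 502 genes were higher and 744 lower, as the median over all tested genes moved to -0.13 from 0.02 with TMM factors. The number of genes also rested on single libraries: 662 were called without ZZY10307 replicate 2 and 582 without replicate 3, and the lower genes were 254 without ZZY10307 replicate 1, 242 without replicate 2 and 214 without replicate 3. Without ZZY10330 replicate 2, the library that stood apart, 754 genes were higher and 367 lower.

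**Figure D2:**
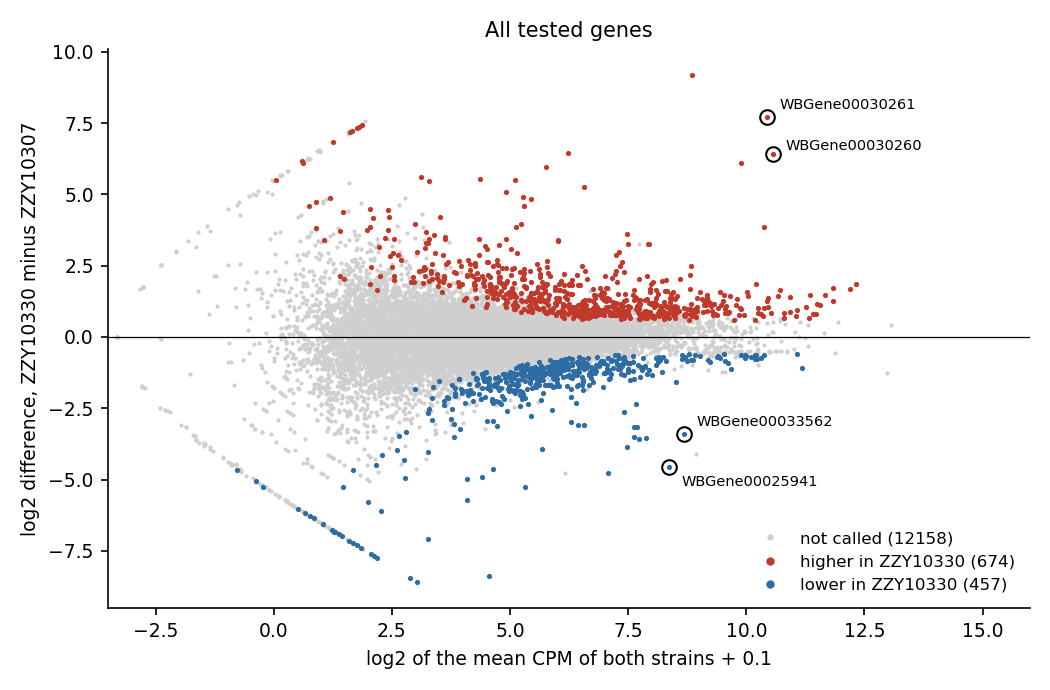
Log2 difference of ZZY10330 minus ZZY10307 (vertical axis) against the log2 mean CPM of both strains (horizontal axis) for the 13289 tested genes. Red points are the 674 genes higher and blue points the 457 genes lower in ZZY10330, and circles mark the named genes. The straight outer edges are genes without a count in 1 of the strains.

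On the median, the genes that differed lay on opposite sides of the JU1421 level in the sterile strains. The 674 genes higher in ZZY10330 had a median of 119.4 CPM in ZZY10330 and 50.9 CPM in ZZY10307, with 122.9 CPM in AF16 and 104.2 CPM in JU1421. Their median log2 difference from JU1421 was 0.48 in ZZY10330 and -1.03 in ZZY10307. Of the 674, 195 had a mean below both parental means in ZZY10330, where 317 lay above both, and 394 lay below both in ZZY10307. The 457 genes lower in ZZY10330 had a median of 29.6 CPM in ZZY10330 and 78.7 CPM in ZZY10307, with 45.1 CPM in AF16 and 49.7 CPM in JU1421. Of these, 321 lay below both parental means in ZZY10330, and 303 lay above both in ZZY10307. These positions are means without a test, and the differences of both strains from JU1421 use the same JU1421 libraries. The genes were chosen for a difference between the sterile strains, and that choice by itself tends to place another strain between them.

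Male-biased genes made up a larger part of the genes higher in ZZY10330 than of those lower. Of the 674 higher genes 34.7% were male-biased in both parents, and of the 457 lower genes 1.31%, while such genes were 10.2% of those tested. Counted the other way, 234 of the 1361 genes were higher in ZZY10330 (17.2%), 6 were lower (0.441%) and 1121 did not pass. Their median log2 difference was 0.44, beside 0.02 over all tested genes. Against JU1421 the same genes had a median of -1.31 in ZZY10330 and -1.66 in ZZY10307. They were thus below JU1421 in both strains and further below in ZZY10307. JU1421 males helped to define the class, which by itself tends to place other strains below them. Of 415 genes male-biased in AF16 only, 36 were higher (8.67%) and 10 lower (2.41%). Of 745 male-biased in JU1421 only, 59 were higher (7.92%) and 11 lower (1.48%). Over all tested genes 5.07% were higher and 3.44% lower. Male-biased classes need at least 5 CPM in males and calls were more frequent at high counts, so these shares are not matched for expression level. The number of genes male-biased in both parents that were higher was 147 without ZZY10307 replicate 3, and it was 9.15% of the class, against 17.2%, when only the 6 libraries of the sterile strains were fitted. It was 348 with 10 lower without ZZY10330 replicate 2, and 24 were lower without ZZY10330 replicate 1.

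The median difference was larger in genes beyond 64-fold male bias in AF16 than in those below. Among 928 genes with a 4- to 16-fold bias there, 120 were higher and 3 lower, and the median was 0.39. Among 312 genes with a 16- to 64-fold bias, 53 were higher and 1 lower, and the median was 0.42. Among 121 genes beyond 64-fold, 61 stood higher and 2 lower, and the median was 1.63. The higher genes were 12.9%, 17% and 50.4% of these groups in turn, beside 5.07% over all tested genes. The lower were 0.323%, 0.321% and 1.65%, beside 3.44%. Set against JU1421, the medians of these 121 genes were -2.64 in ZZY10330 and -4.43 in ZZY10307, with JU1421 males again among the libraries that defined the class. Between AF16 and JU1421 males 64 of the 121 were higher in AF16, 10 were lower and 47 had no call, with a median of 1.26, while the first and second groups had medians of -0.18 and -0.01. Strength of male bias rests on a single AF16 female library and favours genes with many counts in males.

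Genes male-biased in both parents were then divided by the direction in which the parents differed, and in each group most genes did not pass the test. A gene was placed by the comparison of AF16 with JU1421 males, which shares no library with the comparison of the sterile strains. There 1226 genes were higher in AF16, 9.23% of those tested, and 1492 lower, 11.2%. Of 171 genes male-biased in both parents and higher in AF16, 59 were higher in ZZY10330 and 0 lower by edgeR, the median being 0.72. Of 221 that were lower in AF16, 73 were higher in ZZY10330 and 3 lower, the median being 0.64. Of 969 with no call between the parents, 102 stood higher and 3 lower, the median being 0.37. The higher genes were 34.5%, 33% and 10.5% of these groups in turn, beside 5.07% over all tested genes. The lower were 0%, 1.36% and 0.31%, beside 3.44%. In shares of gene counts, the 969 genes held 8.01 ± 1.03% in ZZY10330 and 5.79 ± 0.286% in ZZY10307, beside 14.8 ± 0.0473% in AF16 and 13.8 ± 0.794% in JU1421 (SD, n = 3 each, exact two-sided permutation p = 0.1 between the sterile strains). The 221 genes lower in AF16 held 6.64 ± 1.49% in ZZY10330 and 3.66 ± 0.381% in ZZY10307, and the 171 higher in AF16 held 2.29 ± 0.179% in ZZY10330 and 1.16 ± 0.0183% in ZZY10307 (n = 3 each, exact two-sided permutation p = 0.1 for each group). The total difference of 6.34 percentage points between the strains was uneven over genes: 930 of the 1361 took a larger share in ZZY10330 and 429 a smaller one, and the 10 genes with the largest gain summed to 2.54 points.

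Of the 557 genes female-biased in both parents 375 had enough counts in males to be tested. Of these 35 were lower in ZZY10330 (9.33%), 9 were higher (2.40%) and 331 did not pass, with a median of -0.67. Over all tested genes 3.44% were lower and 5.07% higher. Against JU1421 the class had a median of -0.01 in ZZY10330 and 0.64 in ZZY10307. Low levels in JU1421 males were part of its definition, which tends to place other strains above them. Among genes female-biased in AF16 only, 15 of 290 were lower (5.17%) and 11 higher (3.79%), shares near those over all tested genes, with a median of -0.45. Among those female-biased in JU1421 only, 35 of 411 were lower and 11 higher, with a median of -0.40. The 35 lower genes of the first group became 18 without ZZY10307 replicate 1, 16 without replicate 2 and 16 without replicate 3. By strength of bias, 29 of 271 with a 4- to 16-fold bias in AF16 were lower, 6 of 93 with a 16- to 64-fold bias, and 0 of 11 beyond that, where 1 was higher by edgeR.

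**Figure D3:**
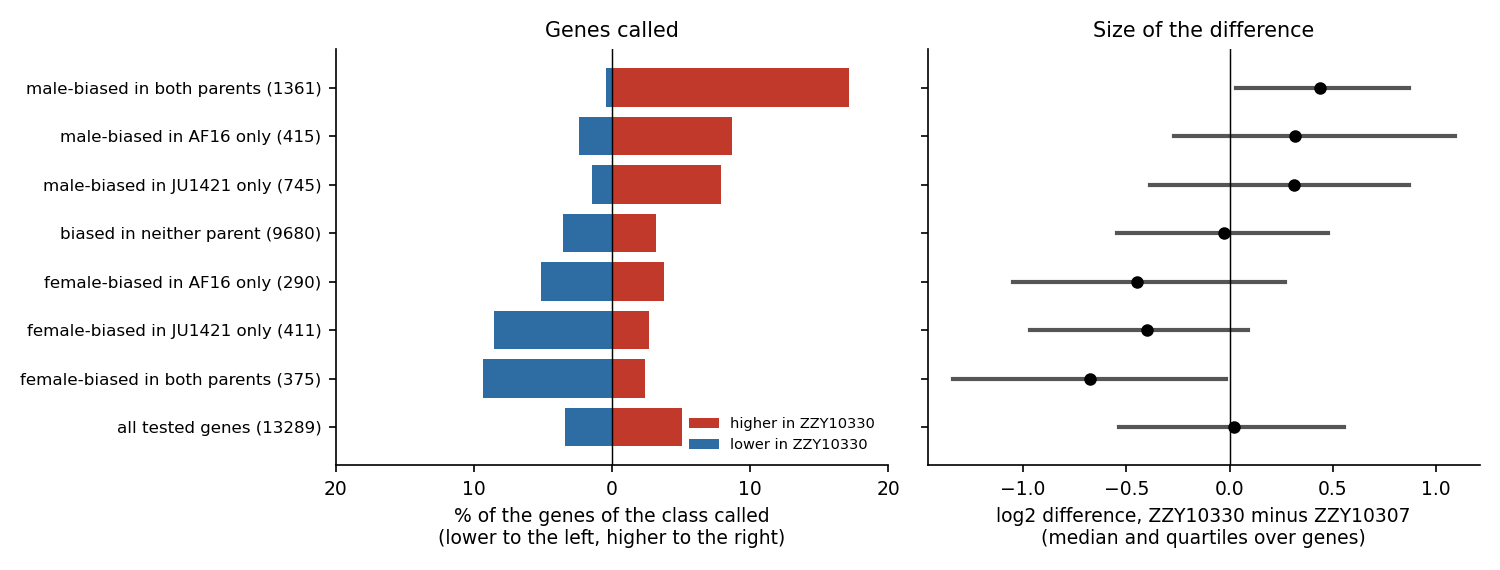
Left, percent of the tested genes of each sex-bias class called higher (red, to the right) or lower (blue, to the left) in ZZY10330 than in ZZY10307, with the number of genes in parentheses. Right, the median (point) and quartiles (line) of the log2 difference over the genes of the class. The medians run from 0.44 in genes male-biased in both parents to -0.67 in genes female-biased in both.

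Of the genes without sex bias in either parent that were called both between the sterile strains and between the parents, most differed in the same direction in both. Of 9680 genes without sex bias, 312 were higher in ZZY10330 (3.22%) and 343 lower (3.54%), with a median of -0.03. Beside them stand 5.07% and 3.44% over all tested genes. Of 770 genes without sex bias that were higher in AF16 than in JU1421 males, 113 were higher in ZZY10330 and 18 lower, with a median of 0.29. Of 867 that were lower in AF16, 83 were lower in ZZY10330 and 21 higher, with a median of -0.18. Of 8043 with no call between the parents, 178 were higher and 242 lower, so most of the 655 genes that differed between the sterile strains had no parental call. In the 235 genes called in both comparisons the direction matched in 196, or 83.4%, and the fitted differences of all genes without sex bias had the same sign in 55%. In genes male-biased in both parents the direction matched in 62 of 135, or 45.9%. Nearly all of these were higher in ZZY10330, 59 of them higher and 73 lower in AF16, while 3 were lower in ZZY10330. The match there thus mostly restates how the parents split these genes. Among genes without sex bias, fewer matched without a ZZY10307 library. They were 112 of 136 without replicate 1, 116 of 136 without replicate 2 and 90 of 108 without replicate 3. Across the 655 genes without sex bias called between the sterile strains, the differences of the 2 comparisons correlated at 0.272 (Pearson) and 0.314 (Spearman). That is a description across genes of 1 fit, and genes are not independent replicates. No source used here gives how reads of either species were assigned to the shared gene list. A difference in transcript level and a difference in assignment cannot be told apart.

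**Figure D4:**
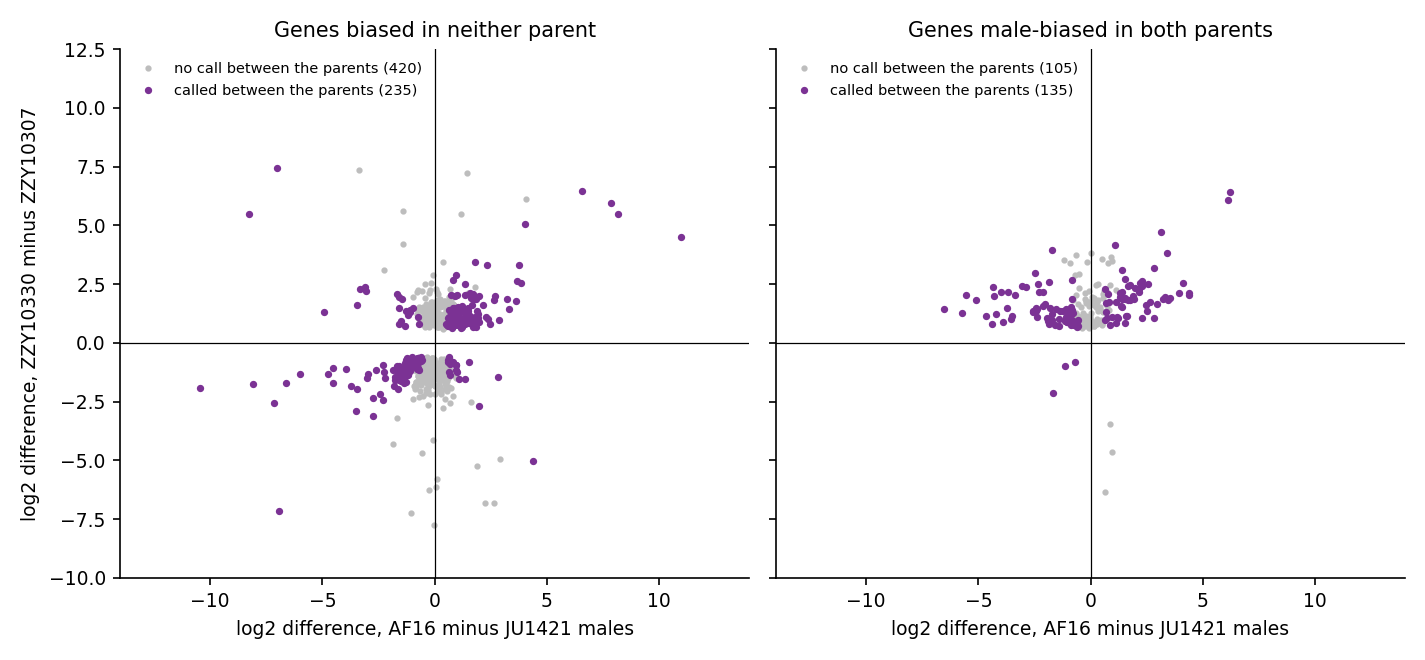
Log2 difference of ZZY10330 minus ZZY10307 (vertical axis) against that of AF16 minus JU1421 males (horizontal axis) for genes called between the sterile strains. Left, genes biased in neither parent, where 196 of the 235 genes called in both comparisons (purple) lie at the lower left or upper right of the origin. Right, genes male-biased in both parents, where most points lie above 0 on both sides.

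Differences above 16-fold had a different make-up in each direction. Of the 33 genes higher by more than 16-fold in ZZY10330, 20 were also higher in AF16, 5 were lower in AF16 and 8 had no call between the parents. Of the 41 genes lower by more than 16-fold, 5 were higher in AF16, 4 were lower in AF16 and 32 had no call. Over all 13289 tested genes 9.23% were higher in AF16, 11.2% were lower and 10571 had no call. The make-up of the 41 lower genes was near these shares. The lower genes without a parental call reached 631 CPM in ZZY10307. No count was present in the lower strain for 9 of the 33 and 23 of the 41, and the fitted folds of those genes depend on the prior count of the fit.

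Identifiers are not paired with gene names or positions in the files used here, so the genes below are given by WormBase identifier, no role can be stated and none can be placed inside or outside an introgressed segment. They are, in each direction, the 2 genes with the highest mean CPM in the higher strain among those called with a difference of 4-fold or more and no overlap of libraries, a condition that 156 higher and 95 lower genes met.

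WBGene00030260, male-biased in both parents, stood at 2954, 3522 and 2455 CPM in ZZY10330, against 30.7, 34.6 and 39.9 CPM in ZZY10307. AF16 males had 2375, 2456 and 2413 CPM and JU1421 males 36.1, 31.8 and 29.2 CPM. ZZY10330 was thus at the level of C. briggsae males and ZZY10307 at that of C. nigoni males. The log2 difference was 6.41 (SE 0.23, edgeR adjusted p = 1.07e-13). WBGene00030261, male-biased in AF16 only, showed a similar pattern, with 2691, 3175 and 2482 CPM in ZZY10330 and 16.1, 6.28 and 17.7 CPM in ZZY10307. AF16 males had 2205, 2317 and 1613 CPM, and JU1421 males had 5.81, 8.68 and 5.999 CPM. ZZY10307 lay above JU1421 on average, with overlap (log2 0.94, edgeR adjusted p = 0.049). Between the sterile strains the log2 difference of WBGene00030261 was 7.72 (SE 0.34, edgeR adjusted p = 1.46e-12). All ZZY10330 libraries of both genes lay far above all ZZY10307 libraries.

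WBGene00033562, female-biased in AF16 only, stood at 72.3, 35.4 and 105.6 CPM in ZZY10330, against 991, 487 and 779 CPM in ZZY10307. AF16 males had 18.2, 69.9 and 50.3 CPM and JU1421 males 1292, 1444 and 1800 CPM. The female libraries had 816.1 CPM in AF16 and 430.4 CPM in JU1421, the second below every JU1421 male library. ZZY10330 overlapped AF16 here, and ZZY10307 lay below JU1421 without passing the test against it (edgeR adjusted p = 0.12). The log2 difference between the sterile strains was -3.42 (SE 0.48, edgeR adjusted p = 0.000739). WBGene00025941, female-biased in both parents, stood at 24.8, 22.6 and 33.2 CPM in ZZY10330, against 1044, 248 and 600 CPM in ZZY10307. AF16 males had 153.8, 273.4 and 54.3 CPM and JU1421 males 263.9, 374.2 and 196.8 CPM, so ZZY10330 lay below every library of both parents. Its log2 difference was -4.57 (SE 0.68, edgeR adjusted p = 0.00251), a call lost when each library was weighted by its quality in limma voom (adjusted p = 0.0525).

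Genes found in males of only 1 parental strain were traced in the sterile strains. In AF16 males 109 genes had a mean of at least 5 CPM and a count in every library while no JU1421 male library had any. Of these, 34, 19 and 19 had a count in the ZZY10330 libraries, against 37, 28 and 26 in the ZZY10307 libraries. No count in any library was found for 69 in ZZY10330 and 61 in ZZY10307, and 50 of the 109 had none in both strains together. Most of these AF16 genes were thus unseen in each strain taken alone. Of the 83 tested, 2 were higher in ZZY10330 and 2 lower, beside 5.07% and 3.44% over all tested genes.

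In the opposite class, 172 genes were found in JU1421 but not in AF16 males. ZZY10330 libraries had counts in 160, 127 and 129 of them, against 163, 146 and 154 in ZZY10307 libraries. All 3 libraries had a count for 106 in ZZY10330 and for 136 in ZZY10307, and 5 genes in each strain had none. Most JU1421 genes were thus seen in both strains, and of the 164 tested 8 were higher in ZZY10330 and 6 lower, shares near those over all tested genes (5.07% and 3.44%). Only 8 genes had counts at 5 CPM or more in ZZY10330 and none in ZZY10307, reaching 7.13 CPM, and 17 showed the reverse, reaching 16.2 CPM. At these levels, absence from a library is not shown by a count of 0.

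Repeat families are sequences present in many copies, such as transposable elements, which animal germ lines ordinarily keep silenced. The counts of all families summed to 88103, 66923 and 105310 CPM in ZZY10330, against 55168, 41299 and 47222 CPM in ZZY10307, scaled by the gene total of each library without TMM factors. Every ZZY10330 library lay above every ZZY10307 library, with means of 86779 ± 19228 in ZZY10330 and 47896 ± 6959 in ZZY10307 (SD, n = 3 each, exact two-sided permutation p = 0.1). The sum of all families was larger on average in the parental strains, at 103570 ± 4997 in AF16 and 165300 ± 16047 in JU1421. A single family, cb_rnd-5_family-688, held 56.4 ± 5.84% of repeat counts in ZZY10330 and 39.5 ± 1.21% in ZZY10307. Without it the sums were 37247 ± 5606 CPM in ZZY10330 and 28910 ± 3663 in ZZY10307, again without overlap (exact two-sided permutation p = 0.1). Without that family AF16 averaged 31046 CPM (28564 to 34160) and JU1421 34768 CPM (31238 to 37254). The mean of ZZY10330 was then above those of both parents, though its libraries, from 33591 to 43701 CPM, overlapped with both. The difference lay in families whose names start with cb, at 74882 ± 18497 in ZZY10330 and 34222 ± 5340 in ZZY10307 (exact two-sided permutation p = 0.1). Families whose names start with c_sp9 summed to 11895 ± 822 in ZZY10330 and 13674 ± 1628 in ZZY10307, with overlap (exact two-sided permutation p = 0.2). The difference in the total was 29617 CPM without ZZY10330 replicate 3 and 48808 without replicate 2. The male-biased share of gene counts was also higher in every ZZY10330 library, and its part in the repeat difference was not tested.

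Of the 696 families tested 18 differed, 2.59%, of which 9 were higher in ZZY10330 (1.29%) and 9 lower (1.29%). Of 127 families with a mean of 10 CPM or more, 8 were higher and 5 lower. Between the parents 50 families were higher in AF16 (7.18%) and 94 lower (13.5%). Of the 9 families higher in ZZY10330, 3 were higher in AF16, 4 lower in AF16 and 2 had no call, and of the 9 lower families 3 fell in each group. Families of each parental group were thus found on both sides. The number rested on single libraries, with 10 families without ZZY10307 replicate 1 and 9 without replicate 3.

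Among the higher families, cb_rnd-5_family-688 stood at 50830, 30350 and 63760 CPM in ZZY10330, against 19950, 13460 and 15890 CPM in ZZY10307. The strains did not overlap, and both lay below the parents, at 76922 ± 3523 CPM in AF16 and 148870 ± 24069 CPM in JU1421 (SD, n = 3 each). The log2 difference was 1.56 (SE 0.23, edgeR adjusted p = 2.12e-09). A similar order was found for cb_rnd-5_family-2438, at 5119, 3116 and 6890 CPM in ZZY10330 and 2523, 1840 and 1798 CPM in ZZY10307, with 7323 ± 587 CPM in AF16 and 13554 ± 2116 CPM in JU1421. ZZY10330 replicate 3 reached the AF16 range there. The family's log2 difference was 1.30 (SE 0.24, edgeR adjusted p = 6.40e-06).

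In 3 of the 9 higher families every ZZY10330 library lay above every library of both parents, the third being c_sp9_rnd-5_family-81, described further on. The family cb_rnd-5_family-4471 stood at 2903, 4770 and 4349 CPM in ZZY10330, against 1134, 1469 and 1198 CPM in ZZY10307. AF16 had 1221 ± 307 CPM and JU1421 1138 ± 120 CPM, close to ZZY10307 (log2 difference between the sterile strains 1.66, SE 0.26, edgeR adjusted p = 1.48e-08). The family cb_rnd-5_family-3381 stood at 1831, 1971 and 6501 CPM in ZZY10330, against 490.5, 555.2 and 494.2 CPM in ZZY10307, with 789 ± 96.9 CPM in AF16 and 517 ± 12.9 CPM in JU1421. ZZY10330 replicate 3 was high beside the other ZZY10330 libraries, all of which lay above every other library. Its log2 difference was 2.74 (SE 0.28, edgeR adjusted p = 2.97e-19), or 1.89 without ZZY10330 replicate 3 (adjusted p = 3.16e-09).

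Of the remaining higher families, c_sp9_rnd-5_family-5639 stood at 373.3, 260.5 and 309.7 CPM in ZZY10330, against 91.6, 61.0 and 88.0 CPM in ZZY10307 (log2 1.97, SE 0.30, edgeR adjusted p = 7.60e-09). Lower levels were found for c_sp9_rnd-5_family-9330, at 35.2, 20.4 and 20.5 CPM in ZZY10330 and 10.9, 4.97 and 6.71 CPM in ZZY10307 (log2 1.76, edgeR adjusted p = 8.29e-05), a call lost when only the 6 libraries were fitted (adjusted p = 0.0656). AF16 had 616 ± 76.6 CPM of the first and 356 ± 50.8 CPM of the second, above both sterile strains. JU1421 had 319 ± 91.8 CPM of c_sp9_rnd-5_family-5639, overlapping ZZY10330 and above ZZY10307 (log2 of ZZY10307 minus JU1421 -1.99, edgeR adjusted p = 3.30e-09), and 170.9 ± 41.7 CPM of c_sp9_rnd-5_family-9330, above both sterile strains. The families c_sp9_rnd-5_family-81 and c_sp9_rnd-5_family-3359 differed less, with log2 1.14 and 0.90 and edgeR adjusted p of 0.024 and 0.030. Their calls were each lost on leaving out any of several single libraries (adjusted p up to 0.256 and 0.249). For c_sp9_rnd-5_family-81 the sterile strains, at 289.6, 362.5 and 383.4 CPM in ZZY10330 and 159.2, 166.5 and 144.5 CPM in ZZY10307, lay above AF16 at 2.85 ± 1.71 CPM and JU1421 at 86.2 ± 21.0 CPM. The family cb_rnd-5_family-96 had 56 counts in ZZY10330, all in replicate 2 (13.5 CPM), and none in ZZY10307 or JU1421. AF16 had 13.4 ± 2.26 CPM. The call between the sterile strains (edgeR adjusted p = 0.020) thus rested on 1 library, and the libraries overlapped.

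The best supported of the lower families by adjusted p was c_sp9_rnd-5_family-2851, at 58.9, 50.03 and 81.6 CPM in ZZY10330, against 489.5, 118.3 and 270.6 CPM in ZZY10307. AF16 had 199 ± 68.0 CPM and JU1421 243 ± 77.2 CPM, so that ZZY10330 was the strain that lay apart. The log2 difference was -2.21 (SE 0.32, edgeR adjusted p = 2.81e-09), or -1.62 without ZZY10307 replicate 1 (adjusted p = 0.000759). The family c_sp9_rnd-5_family-2714 had no count in ZZY10330, against 11.2, 7.59 and 5.65 CPM in ZZY10307 (edgeR adjusted p = 0.000105). With a floor of 3 counts over the ZZY10330 libraries it was at least 27.6-fold lower. Likewise c_sp9_rnd-5_family-2037 had no count in ZZY10330 and 43 in ZZY10307, at least 14.6-fold lower. Both were seen in JU1421 males, at 21.4 ± 9.07 and 10.5 ± 2.34 CPM, and both were low in AF16 males, at 2.48 ± 1.56 and 1.02 ± 1.21 CPM. The parental difference passed for c_sp9_rnd-5_family-2714 (edgeR adjusted p = 0.018) and not for c_sp9_rnd-5_family-2037 (edgeR adjusted p = 0.096).

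A further group of lower families was the opposite, with more counts in AF16 than in JU1421. The family cb_rnd-3_family-789 had 4 counts in ZZY10330, all in replicate 1, and 114 in ZZY10307 (14.9, 9.69 and 10.2 CPM), beside 23.5 ± 3.93 CPM in AF16 and 0.553 ± 0.958 CPM in JU1421. Its call held in each of 13 alternatives (edgeR adjusted p = 0.0023), and the fitted log2 difference of -4.76 became -8.11 without ZZY10330 replicate 1 and -4.14 without replicate 2. The family cb_rnd-4_family-1140 had 2 counts in ZZY10330 and 39 in ZZY10307, a ratio of 19.9 in favour of ZZY10307 with an exact 95% counting interval of 5.16 to 170. With 9 counts in ZZY10307 and none in ZZY10330, cb_rnd-4_family-5119 was at least 3.06-fold lower but overlapped, since ZZY10307 replicate 2 had none either. Counting intervals and floors cover counting error only.

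The other lower families had counts in all 6 libraries. The values for c_sp9_rnd-5_family-3464 were 9.08, 6.25 and 1.31 CPM in ZZY10330, against 31.4, 39.5 and 44.2 CPM in ZZY10307 (log2 -2.76, SE 0.70, edgeR adjusted p = 0.0060). For c_sp9_rnd-4_family-345 they were 77.0, 36.3 and 68.9 CPM in ZZY10330, against 173.5, 157.3 and 139.5 CPM in ZZY10307 (log2 -1.37, SE 0.37, edgeR adjusted p = 0.012). For c_sp9_rnd-5_family-1049 they were 90.8, 73.4 and 32.7 CPM in ZZY10330, against 175.7, 154.5 and 152.2 CPM in ZZY10307 (log2 -1.29, SE 0.36, edgeR adjusted p = 0.019). In each of these the strains did not overlap, but the calls were lost on leaving out single libraries, with adjusted p up to 0.0836, 0.171 and 0.249. The calls for cb_rnd-4_family-1140, c_sp9_rnd-5_family-2037 and cb_rnd-4_family-5119 were lost in the same way (adjusted p up to 0.162, 0.119 and 0.582).

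**Figure D5:**
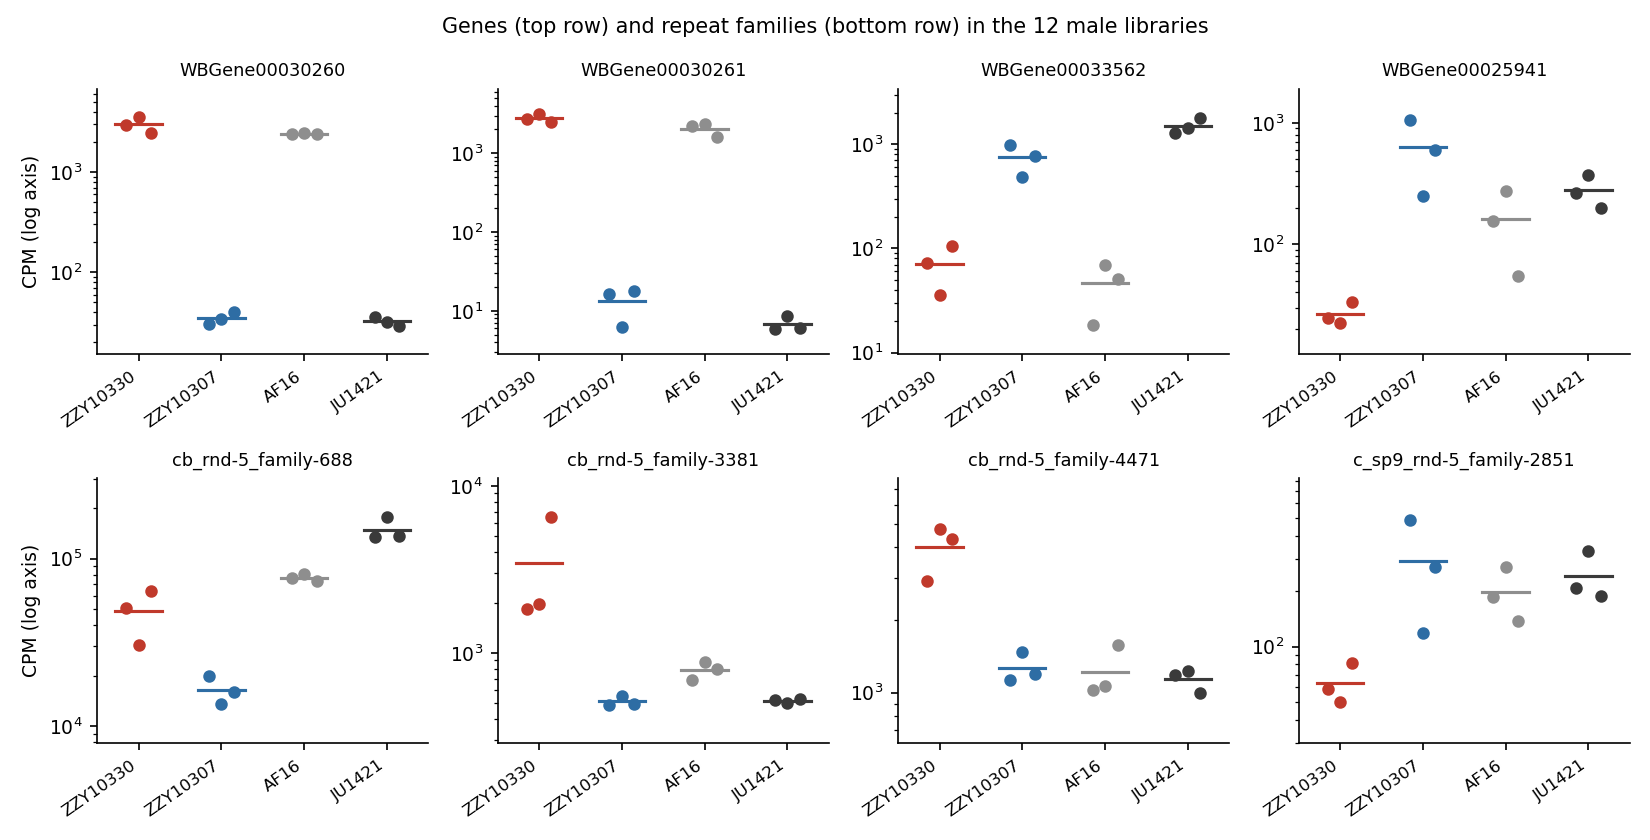
CPM (log axis) of the named genes (top row) and of 4 repeat families (bottom row) in the 12 male libraries, with a line at the mean of each strain. The genes WBGene00030260 and WBGene00030261 lie at the AF16 level in ZZY10330 and near the JU1421 level in ZZY10307, and the family cb_rnd-5_family-4471 lies above all other strains in ZZY10330.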

How the data were processed

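The files deposited by the authors hold raw gene counts (14 libraries) and raw repeat family counts (the 12 male libraries), per the file headers and the whole-number values. The labels' protocols and design text give the male messenger RNA libraries as made from 300 ng of total RNA with a stranded TruSeq kit. These were read as pairs of 150 nt on a MiSeq, per the same text. RNA amount and read length are not listed for the female libraries, so a shared preparation of both sexes is not shown. Trimmomatic and edgeR are the tools listed, without versions, per the submitters' processing notes. Aligner, counting program, genome build, annotation and strand setting: not given in the sources used here. Overlapping genes and near-identical copies are therefore uncertain.

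With R 4.3.3, genes were kept by filterByExpr of edgeR 4.0.16 (minimum count 10), scaled by TMM and fitted over the 12 male libraries with 1 coefficient per strain and the robust quasi-likelihood test; calls have a Benjamini-Hochberg adjusted p below 0.05. Repeat families needed 10 counts or more in the 12 libraries together and took library sizes and TMM factors from the genes. Sex bias used a prior count of 2 and required every male library on that side. Library shares and sums were tested by exact two-sided permutation. DESeq2 1.42.0 and limma 3.58.1 (voom) were alternatives. The pipeline was checked on simulated data. No replicate male libraries agreed within sampling noise, since chi-square values divided by their degrees of freedom ran from 7.08 to 26.2.

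Genes named are, each way, the 2 with the highest CPM in the higher strain among called genes with a 4-fold or larger difference and no overlap; repeat families named are all those called. Members, classes and lists were chosen with earlier results of these data known. Gene lists by symbol, cell type markers and genes within the X segments were planned and not run, because the files used here do not pair identifiers with names or positions.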

Additional observations from a re-analysis of the deposited data

How the results depend on the processing

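The directions of the shares, the repeat sum and the male-biased and female-biased medians held under every alternative run, while the median of genes biased in neither parent turned from -0.03 to 0.016 with DESeq2 and with its size factors in edgeR. With the 6 libraries of the sterile strains alone, 421 genes were higher and 347 lower in ZZY10330, with DESeq2 1031 and 642, with total counts alone 502 and 744, and against a 1.5-fold difference 382 genes were left, 263 of them higher. The median of genes female-biased in both parents was -0.81 with total counts alone, -0.49 without a filter on low counts, -0.77 with the replicate block and -0.83 with voom weights per library. Leaving out 1 library at a time gave 582 to 1159 genes, 368 to 754 higher and 214 to 553 lower, 9 to 18 repeat families, a male-biased median of 0.32 to 0.58 and a female-biased median of -0.71 to -0.56. The differences of the shares with the sets of AF16 then ran from 6.51 to 8.35 points (male-biased, 7.13 with all libraries) and from -1.10 to -0.73 points (female-biased), those of genes biased in both parents from 5.63 to 7.71 and from -0.608 to -0.355 points, that of the repeat sum from 29617 to 48808 CPM, and the same-direction share from 79.0% to 85.3%. Same-numbered libraries of the strains did not deviate together (correlations 0.0178, 0.0184 and -0.00289). That gave no sign of pairing by number, but with 3 libraries a strain it cannot exclude it. With the replicate block 913 genes (565 higher, 348 lower) and 12 families were called. Chosen after seeing the data, thinning to the smallest total gave 991 genes and voom weights gave 1321, with weights of 0.252 for ZZY10330 replicate 2 and 2.05 for ZZY10307 replicate 3. Calls held in every alternative for 3 of the 4 named genes and 8 of the 18 families. Low counts limit the families under 10 CPM and the genes seen in only 1 strain.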
